A study of Mus musculus with 6 samples.

Results

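Germline genes encode the machinery of meiosis, of egg and sperm formation and of the germ granules in which small RNAs silence transposons, and most are kept silent in somatic tissue such as the embryonic brain. A group of 10 germline genes was followed in the dorsal midbrain of mouse embryos that lost the activity of Ezh2: *Tex15*, *Ddx43*, *Ooep*, *Ddx4*, *Dazl*, *Mael*, *Sycp1*, *Sycp3*, *Stk31* and *Tdrd1*. Every probe set that the platform's annotation gives to a single one of these symbols was taken, which made 12 of the 45037 probe sets tested, 10 of 18193 genes. The genes were chosen by a rule that had the measured differences between *Ezh2* cko and control in view, so their differences in that contrast are given as a description and support nothing by themselves.

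Total RNA of dorsal midbrain at embryonic day 10.5, from C57BL/6 mice, was hybridized to Affymetrix A430 arrays, 1 array for each of 3 control and 3 *Ezh2* cko samples. The *Ezh2* cko embryos were Wnt1-Cre+/Ezh2[SET]lox/lox, in which Cre deletes the catalytic SET domain of *Ezh2*. The labels give the controls as WT, whereas by the methods they were littermates with the floxed allele, either Wnt1-Cre-/Ezh2[SET]lox/lox or Wnt1-Cre+/Ezh2[SET]wt/lox, and the labels do not tell these kinds apart. By the methods each group was drawn from 2 litters, which are not given for single samples. *Wnt1-Cre* is also active in the neural crest, and its recombination in the most rostral dorsal midbrain was found to be incomplete at a later stage. The samples are described as dissected midbrains, 3 per group, and p-values measure the spread between them only.

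Ezh2 is the methyltransferase of Polycomb repressive complex 2, which places the repressive mark H3K27me3 on histones at silent genes. In somatic cells, germline promoters are also known to be kept silent by DNA methylation, by histone H3 lysine 9 methylation and by a variant Polycomb complex that carries E2f6, Mga and L3mbtl2 and binds E-box and E2F motifs. Tex15 acts in the repair of meiotic DNA breaks and in transposon silencing in male germ cells, Ddx43 is a DEAD-box RNA helicase of the testis, and Ooep belongs to the subcortical maternal complex of the egg. Ddx4 (also called Vasa), Mael, Tdrd1 and Stk31 are germ granule or piRNA pathway proteins, Dazl regulates translation in germ cells, and Sycp1 and Sycp3 build the synaptonemal complex that holds paired chromosomes together in meiosis.

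The 12 probe sets fell into 2 patterns. Those of *Tex15*, *Ddx43* and *Ooep* were 1.66- to 2.14-fold higher in *Ezh2* cko, with no overlap between the groups. In the controls, *Tex15* (7.86) and *Ooep* (6.81) already lay above the array medians of 5.68 to 5.72. The controls of *Ddx43* (3.78) lay near the bottom of the signal range. The other 9, which cover *Ddx4*, *Dazl*, *Mael*, *Sycp1*, *Sycp3*, *Stk31* and *Tdrd1*, lay near the bottom of the signal range in both groups and differed by -0.13 to 0.31 on the log2 scale. In RNA from whole tissue, a transcript present in more cells and a transcript more abundant per cell cannot be told apart.

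*Ddx43* and *Ooep* lie next to each other on chromosome 9 and are transcribed away from each other, with start sites 17189 bases apart (78395777 on the plus strand and 78378588 on the minus strand). The 250 bases before each start are shown because both genes stood higher in *Ezh2* cko; they are RefSeq sequences of GRCm38.p6, written 5′ to 3′ on the strand of the gene, with each CpG in capitals. The *Ddx43* stretch is at chr9:78395527-78395776 and the *Ooep* stretch at chr9:78378589-78378838.
Ddx43: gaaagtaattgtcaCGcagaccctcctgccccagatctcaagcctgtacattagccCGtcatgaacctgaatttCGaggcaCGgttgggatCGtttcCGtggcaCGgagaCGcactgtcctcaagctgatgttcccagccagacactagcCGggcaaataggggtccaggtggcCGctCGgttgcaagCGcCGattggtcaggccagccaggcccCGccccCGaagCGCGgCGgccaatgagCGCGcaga
Ooep: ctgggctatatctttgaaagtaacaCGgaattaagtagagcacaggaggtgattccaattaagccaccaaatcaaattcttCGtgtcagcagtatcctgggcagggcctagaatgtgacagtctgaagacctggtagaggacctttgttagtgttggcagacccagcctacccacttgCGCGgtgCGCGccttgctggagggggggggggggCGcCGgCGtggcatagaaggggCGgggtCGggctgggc

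Over the promoter window of RefSeq, 250 bases before to 50 after a start, the ratio of observed to expected CpG was 0.98 for *Ddx43* with 30 CpG and 0.60 for *Ooep* with 15 CpG, beside a median of 0.38 and quartiles of 0.18 and 0.75 over all 32841 windows. Windows were found for 9 of the 10 genes, 12 windows in all, and none for *Tex15*. Among the other genes, the ratio was 0.98 for *Ddx4*, 0.80 for *Dazl*, 0.78 for *Mael*, 0.87 for *Sycp1* and 0.67 for *Sycp3*, and the windows of *Stk31* and *Tdrd1* ran from 0.22 to 0.91. Genes of both patterns thus had windows with a ratio above the median.

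The E-box CACGTG, which is its own reverse complement, was found in at least 1 window of 6 of the 9 genes, *Ddx4*, *Mael*, *Sycp1*, *Sycp3*, *Stk31* and *Tdrd1*, and in none of *Ddx43*, *Ooep* or *Dazl*. Of all windows, 7.15% hold it. This share is per window, while *Stk31* and *Tdrd1* have several windows each, and no share per gene was counted. The E2F-type motif TTCCCGC, searched on both strands and not overlapping the E-box, was found in the windows of *Ddx4* and *Sycp3*, against 4.6% of all windows, and 0.457% of all windows hold both motifs. A match is a string of letters and not a bound site, and its absence says only that these letters are not in this window. The E-boxes of 3 genes not past the adjusted p, *Ddx4* (chr13:112652311-112652366, minus strand), *Sycp3* (chr10:88459496-88459576, plus strand, 2 E-boxes) and *Stk31* (chr6:49395457-49395516, plus strand), are shown with the bases around them, the E-box in capitals, for comparison with the *Ddx43* and *Ooep* stretches.
Ddx4: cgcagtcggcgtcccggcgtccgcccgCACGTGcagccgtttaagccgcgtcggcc
Sycp3: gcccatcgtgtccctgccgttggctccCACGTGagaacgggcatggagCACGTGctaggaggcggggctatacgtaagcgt
Stk31: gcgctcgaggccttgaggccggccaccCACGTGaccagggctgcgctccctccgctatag

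The log2 signal of *Tex15* (probe set 1420719_at) was 7.77, 8.05 and 7.77 in control replicates 1 to 3 and 9.07, 8.69 and 9.05 in *Ezh2* cko replicates 1 to 3. All *Ezh2* cko arrays lay above all controls, with a gap of 0.64 between the nearest arrays, and cko replicate 2 was the lowest of its group. The group means were 7.86 ± 0.16 and 8.94 ± 0.22 (SD, n = 3 each), a log2 difference of 1.07 with a standard error of 0.13 and a 95% interval of 0.78 to 1.36, or 2.10-fold.

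*Ddx43* (1441045_at) read 3.88, 3.57 and 3.88 in the controls and 4.94, 4.78 and 4.91 in *Ezh2* cko. Its groups were the farthest apart of all 12 probe sets, by 0.90, and its *Ezh2* cko arrays spread less than its controls. The means of 3.78 ± 0.18 and 4.88 ± 0.09 (SD, n = 3 each) differed by 1.10 (standard error 0.10, 95% interval 0.86 to 1.34), or 2.14-fold. The controls of this helicase gene thus lay under 4.27, the 25th percentile of mean signals over all probe sets, and the *Ezh2* cko arrays above it.

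*Ooep* (1460471_at) read 6.79, 6.76 and 6.87 in the controls and 7.55, 7.45 and 7.63 in *Ezh2* cko. The groups were 0.58 apart and both were narrow. The means were 6.81 ± 0.05 and 7.54 ± 0.09 (SD, n = 3 each), a difference of 0.73 (standard error 0.08, 95% interval 0.55 to 0.92), or 1.66-fold, which is under the least log2 difference of 0.81 that the methods ask for.

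**Figure D1:**
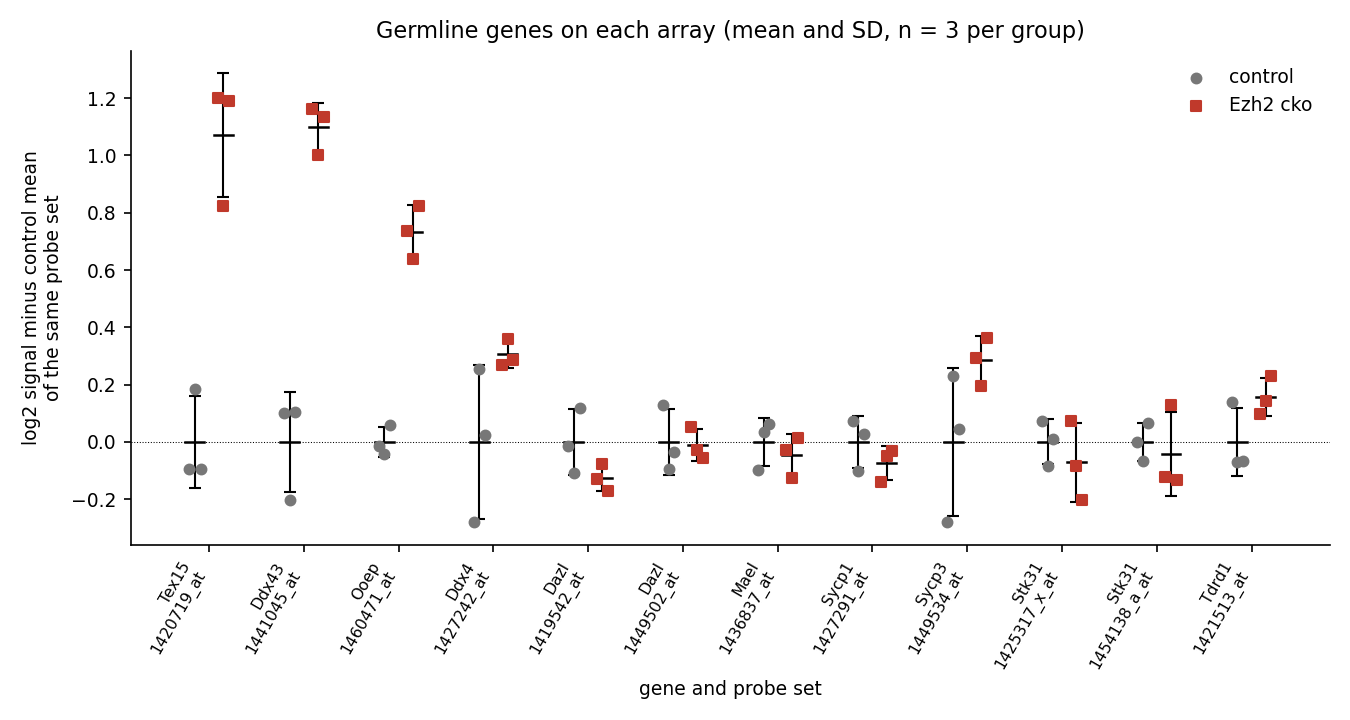
Log2 signal of each of the 12 probe sets on each array, relative to that set's mean over the controls (y axis), by gene and probe set (x axis); grey circles are controls, red squares *Ezh2* cko, and black bars the mean and SD of 3 arrays. The *Ezh2* cko arrays of *Tex15*, *Ddx43* and *Ooep* stand clear of their controls by 0.58 to 0.90, and the groups of *Ddx4* are 0.02 apart.

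*Ddx4* and *Sycp3* came next in size, and the sizes of both moved with which control array was left out. *Ddx4* (1427242_at) read 3.49, 4.02 and 3.79 in the controls and 4.04, 4.13 and 4.06 in *Ezh2* cko, a difference of 0.31 with a 95% interval of 0.01 to 0.60. Its groups did not overlap, but by only 0.02, and the difference was 0.17 without control replicate 1, 0.43 without replicate 2 and 0.32 without replicate 3. *Sycp3* (1449534_at) read 2.82, 3.33 and 3.15 in the controls and 3.40, 3.30 and 3.47 in *Ezh2* cko, a difference of 0.28 with an interval of -0.01 to 0.58. Here the groups overlapped, and without control replicates 1, 2 and 3 in turn the difference was 0.15, 0.40 and 0.31.

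The remaining 7 probe sets showed overlapping groups. *Tdrd1* (1421513_at) was 0.16 higher in *Ezh2* cko, with 4.08, 3.87 and 3.88 in the controls and 4.04, 4.09 and 4.17 in *Ezh2* cko. The probe sets of *Dazl* differed by -0.13 (1419542_at) and -0.01 (1449502_at), that of *Sycp1* (1427291_at) by -0.07, that of *Mael* (1436837_at) by -0.05, and those of *Stk31* by -0.07 (1425317_x_at) and -0.04 (1454138_a_at). Neither *Dazl* nor *Stk31*, the genes with several probe sets, thus had one past the test. Of the 2 synaptonemal complex genes, *Sycp1* was the lower and *Sycp3* the higher in *Ezh2* cko, neither past the test.

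Across the 12 probe sets, 3 passed an adjusted p under 0.05 (limma, Benjamini-Hochberg over all 45037 probe sets), each higher in *Ezh2* cko, beside 0.184% of all probe sets. The threshold of the methods, a log2 difference of at least 0.81 with p of at most 0.01, was met by 2, *Tex15* and *Ddx43*, beside 0.24% of all probe sets. In 4 of the 12, *Ddx4* included, every *Ezh2* cko array lay above every control, beside 5.72% of all probe sets. Nothing is read from these counts, since the genes were chosen with the contrast known. The signs were split evenly, 6 positive and 6 negative, and the median difference was 0.07.

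The 9 probe sets without a call had mean signals of 2.98 to 4.02, all under the 25th percentile of 4.27. In this dim range, 3 of 11259 probe sets of the array passed the adjusted p, 0.0266%. Their 95% intervals ran from -0.32 to 0.60 in all. A signal this low has no level that marks absence, so these intervals bound the change in signal and not in transcript.

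**Figure D2:**
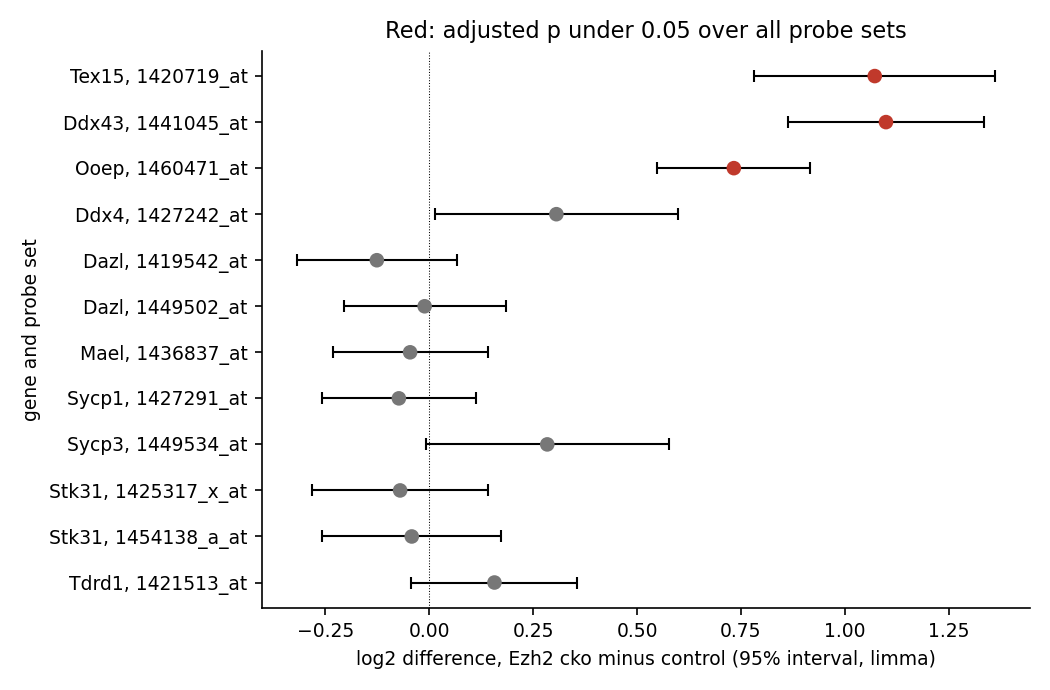
Log2 difference of *Ezh2* cko minus control with its 95% interval from limma (x axis) for the 12 probe sets (y axis), 3 arrays per group; red marks an adjusted p under 0.05 over all probe sets. The intervals of *Tex15*, *Ddx43* and *Ooep* start at 0.78, 0.86 and 0.55, and those of the other 9 probe sets all end at or under 0.60.

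The 3 raised genes followed each other over the 6 arrays, with Pearson's r of 0.93 for *Tex15* and *Ddx43*, 0.97 for *Tex15* and *Ooep* and 0.99 for *Ddx43* and *Ooep*. These values mostly carry the step between the groups, which the choice of genes fixed. As deviations from the group means the same pairs gave -0.19, 0.40 and 0.63 over 6 arrays of 1 experiment. So few arrays cannot tell whether the genes vary together within the groups. These are descriptions without a p.

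Among 9091 genes with at least the median spread, those most like *Tex15* over the 6 arrays were *Ephb1* (r = 0.998), *Cpt1a* and *Ptpn3* (both 0.997), with log2 differences of 0.69, 0.70 and 0.62. Those most like *Ddx43* were *Sfmbt2* (0.996), *Foxa1* (0.995) and *Tcea3* (0.995), with differences of 1.16, 1.23 and 0.42. By deviations from group means, the nearest to *Tex15* were *Dpp7*, *Odam* and *Fam193b* and the nearest to *Ddx43* *Tcea3*, *D6Ertd527e* and *Gm13205*. Such likeness was common: r passed 0.95 for 116 genes with *Tex15* and 76 with *Ddx43* over the 6 arrays. Those values also carry the step between the groups. By deviations from group means, r passed 0.95 for 112 genes with *Tex15* and 26 with *Ddx43*. *Tcea3* was the only gene named by both measures.

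The genes around *Ddx43* and *Tex15* were measured next, in RefSeq order. *Cgas*, the cytosolic DNA sensor of innate immunity and the next measured gene after *Ddx43*, read 5.97, 6.12 and 6.43 in the controls and 6.83, 6.76 and 6.86 in *Ezh2* cko (1440299_at). Its groups did not overlap, and its difference of 0.64 (standard error 0.12, 95% interval 0.37 to 0.91) had an adjusted p of 0.117 (limma). Its other probe set (1453202_at) was 0.25 higher, at an adjusted p of 0.503 (limma), again with no overlap.

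Beyond this stretch of *Ooep*, *Ddx43* and *Cgas*, which was itself marked out from the values, the nearest measured genes differed little. On the side of *Ooep*, *Dppa5a* differed by -0.05 and *Gsta2* by -0.19. *Gsta2* (3.91 in controls and 3.73 in *Ezh2* cko) and some genes beyond it lay under 4.27, the 25th percentile of mean signals. Their small differences therefore mark no edge of the stretch. On the side of *Cgas*, whose start is 47460 bases from that of *Ddx43*, *Mto1* differed by 0.05 and *Eef1a1* by 0.01. Within 10 measured genes on either side, a distance chosen after the values were seen, the other 18 genes ran from -0.34 to 0.17. None passed the adjusted p, beside 0.302% of all genes. Only *Gsta4* (-0.34) had groups that did not overlap. The share of all probe sets lower without overlap was not counted, so nothing is read from this.

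*Tex15* stood alone among its neighbours. *Purg*, *Wrn* and *Nrg1* on one side differed by 0.03, 0.14 and 0.10, and *Ppp2cb*, *Ubxn8* and *Gsr* on the other by -0.04, 0.17 and 0.12. All 6 had overlapping groups and none passed the adjusted p. Of 20 genes within 10 measured genes on either side, from -0.18 to 0.57, none passed the adjusted p. Every *Ezh2* cko array lay above every control for *Dusp26* (0.57) and *7420700N18Rik* (0.13), beside 5.72% of all probe sets. Nothing is read from this count.

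**Figure D3:**
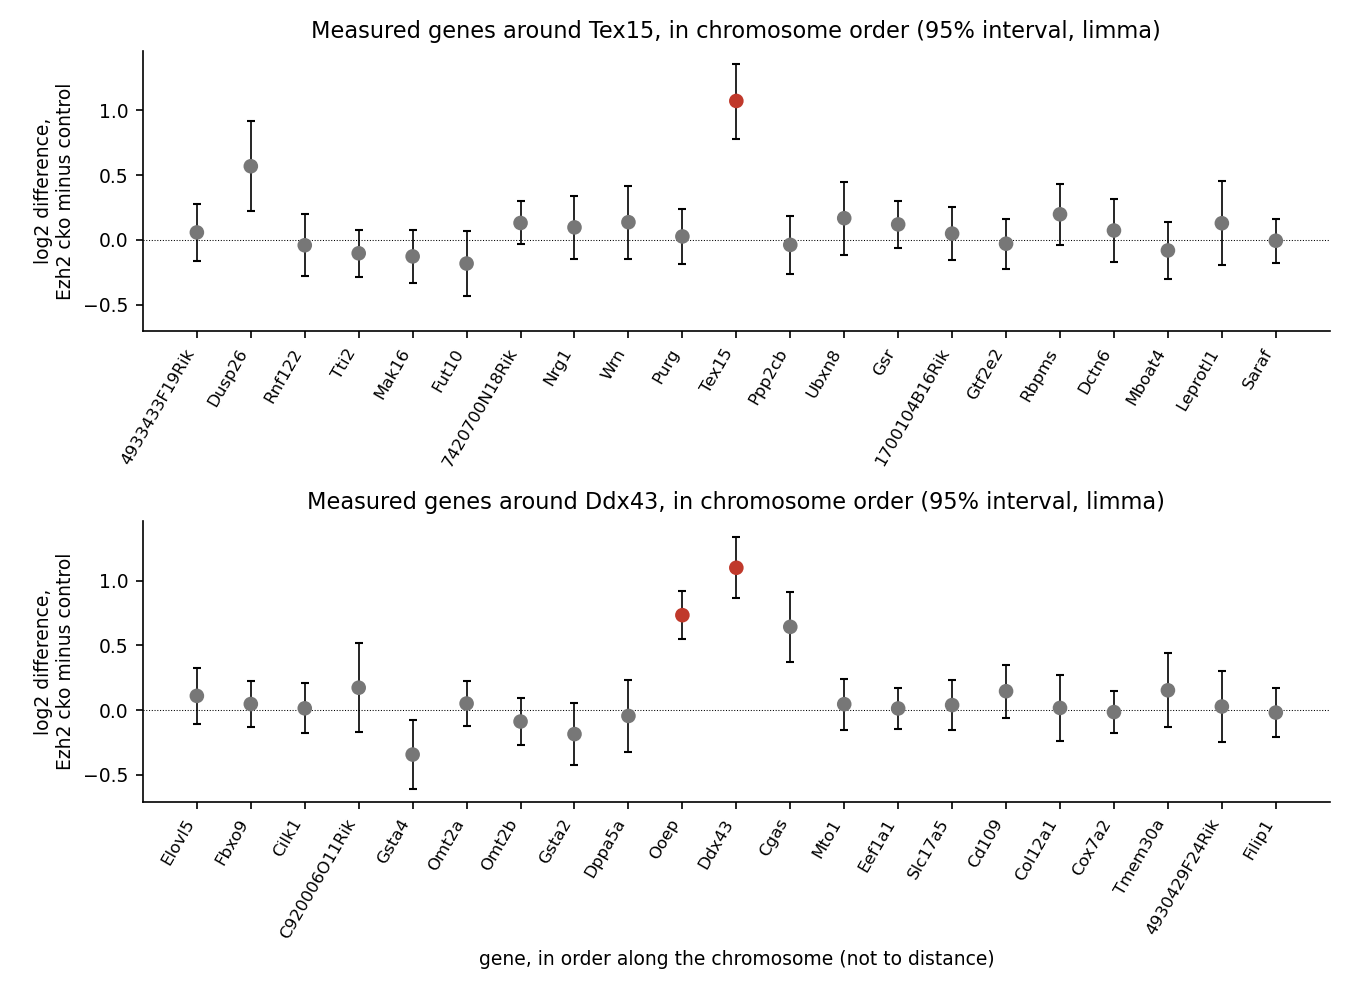
Log2 difference of *Ezh2* cko minus control with its 95% interval from limma (y axis) for the measured genes around *Tex15* (upper panel) and *Ddx43* (lower panel), 1 probe set per gene, in order along the chromosome and not to distance (x axis); red marks an adjusted p under 0.05. *Ooep*, *Ddx43* and *Cgas* (0.73, 1.10 and 0.64) stand side by side, while *Tex15* (1.07) has neighbours at -0.04 and 0.03.

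Other germline genes were read from lists by role, 102 of 115 listed genes having a probe set. None passed the adjusted p, beside 0.302% of all genes, and 8 had an unadjusted p under 0.05 in limma (7 higher and 1 lower), 7.84% beside 8.87% of all genes. Over all 143 probe sets of these genes, 0 passed the adjusted p and 13 had an unadjusted p under 0.05 (9.09%, beside 7.55% of all probe sets). The threshold of the methods was met by 2 of the 143, 1 of *Hspa2* and 1 of *Rbm46*, beside 117 of all 45037 probe sets. The unpaired test that the methods name gave 11 of the 102 genes an unadjusted p under 0.05, 10.8% beside 8.16% of all genes; after adjustment it called none of the 45037 probe sets, so its 0 here carries no weight. The median difference of the 102 genes was -0.03, with 44 positive and 58 negative. Within 0.25 of 0 lay 96 of 102, beside 16733 of all 18193 genes. Some of the 102, such as *Nlrp14* (3.07 in controls and 3.31 in *Ezh2* cko) and *Tnp2* (3.81 and 3.60), lay under 4.27, the 25th percentile of mean signals. For such genes a small difference does not show an unchanged transcript. Over all genes the median was -0.02 and the quartiles -0.09 and 0.06, and the median of the 10 genes described here was 0.22.

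Among 17 piRNA and germ granule genes, the relatives of *Mael*, *Tdrd1* and *Ddx4*, the range was -0.22 to 0.24. The extremes were *Piwil1*, a piRNA-binding Argonaute (-0.22, adjusted p 0.542, limma), and *Tdrd7*, a Tudor protein of the germ granule (0.24, adjusted p 0.439), whose other probe set differed by -0.14. *Tdrd9* (-0.19) and *Tex19.1* (-0.13) followed. The list's median was -0.03.

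Among 28 meiosis genes, the relatives of *Sycp1* and *Sycp3*, the median was 0.01. *Hspa2*, a chaperone needed for meiosis in spermatocytes, read 5.11, 5.68 and 5.63 in the controls and 6.35, 6.38 and 6.71 in *Ezh2* cko. The groups were 0.67 apart, and its difference of 1.01 (2.01-fold, standard error 0.16) met the threshold of the methods and missed the adjusted p at 0.074 (limma). *Dmc1*, the meiotic recombinase, differed by 0.38 (adjusted p 0.276) and by 0.35 in its other probe set, *Syce2* by 0.21 and *Stag3* by 0.20.

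Among 19 genes of a mixed list of germ cell RNA regulators and spermatogonial genes, set beside *Dazl*, the median was -0.02. *Rbm46*, an RNA-binding protein of meiotic entry, differed by 0.72 (adjusted p 0.254, limma) and by 0.91 in its other probe set (1.88-fold), which met the threshold of the methods and missed the adjusted p at 0.159. *Tuba3b* (-0.31), *Boll* (-0.16) and *Nanos1* (0.15) were next in size.

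Among 18 oocyte and maternal genes, the relatives of *Ooep*, the median was -0.01. *Lhx8*, a LIM homeobox gene of oocytes that is also used in the ventral forebrain, read 3.92, 3.98 and 4.17 in the controls and 4.66, 4.54 and 4.55 in *Ezh2* cko, 0.56 higher (adjusted p 0.0712, limma). *Bnc1* (0.27), *Nlrp14* (0.24) and *Figla* (-0.19) were next, and *Khdc3*, a partner of Ooep in the maternal complex, differed by -0.15. The 20 spermatid genes ran from -0.22 (*Tnp2*) to 0.23 (*Acr*), with a median of -0.06 and *Spata18* (-0.17) and *Spaca1* (0.15) between them.

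The known repressors of germline genes were measured too. Of 27 genes, which include DNA methyltransferases, the E2f6, Mga and L3mbtl2 complex and Polycomb subunits, none passed the adjusted p and none had an unadjusted p under 0.05 in limma with 1 probe set per gene, beside 0.302% and 8.87% of all genes, and 1 did in the unpaired test. Over all 73 probe sets of these genes, 0 passed the adjusted p and 4 had an unadjusted p under 0.05 (5.48%, beside 7.55% of all probe sets), 1 each of *Dnmt3a* (0.32), *Mga* (-0.27), *Kdm5c* (-0.26) and *Atf7ip* (-0.23). With 1 probe set per gene the range was -0.29 to 0.06, with 19 of 27 negative and a median of -0.05. *Dnmt3a* was lowest at -0.29 (adjusted p 0.822), carried by *Ezh2* cko replicate 3 at 8.76 against 9.62 and 9.68, and its other 4 probe sets ran from -0.11 to 0.32. *L3mbtl2* (-0.21), *Kdm5c* (-0.17) and *Atf7ip* (-0.16) followed. *Ezh2* itself read 11.70 ± 0.05 and 11.75 ± 0.04 (SD, n = 3 each), so its probe set does not check the deletion, and where it lies relative to the removed exons was not examined.

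**Figure D4:**
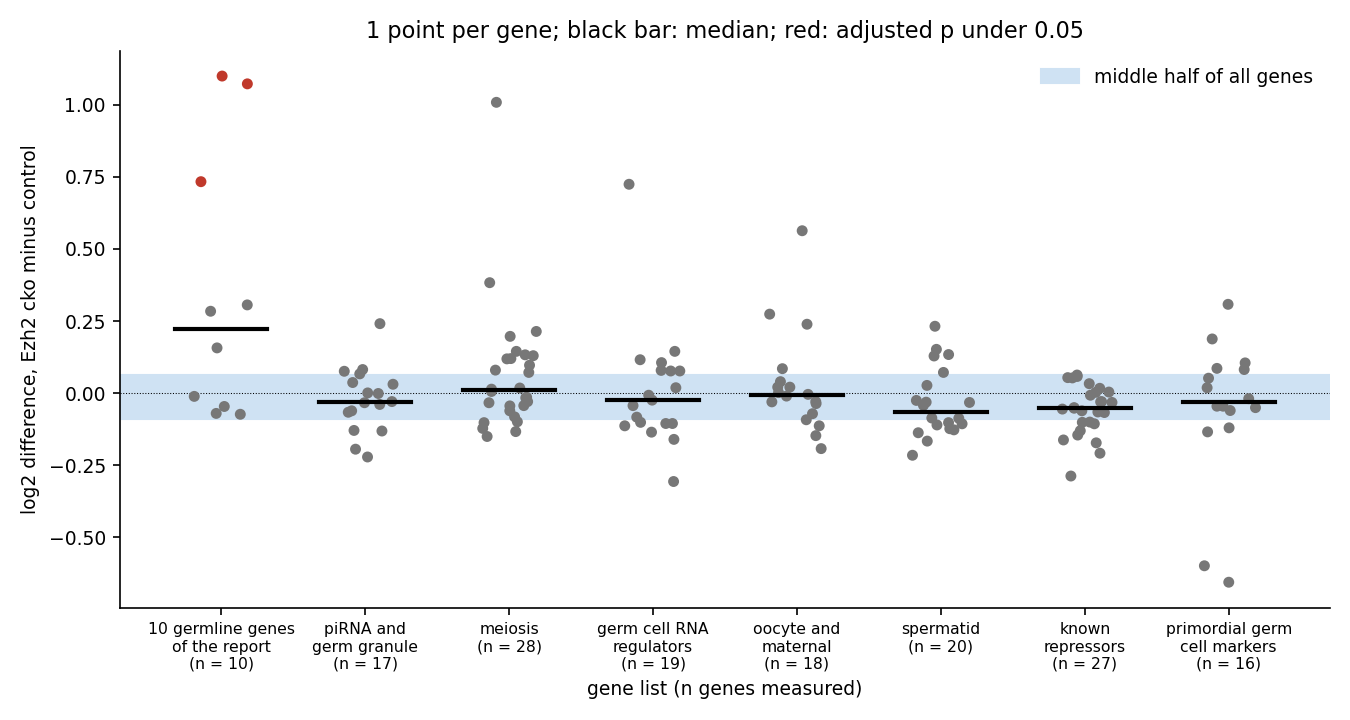
Log2 difference of *Ezh2* cko minus control (y axis) for the genes of each list (x axis, with the number measured), 1 point per gene and 1 probe set per gene; black bars are medians, red points pass the adjusted p, and the band spans the quartiles of all genes, -0.09 to 0.06. Outside the 10 genes of the first column no point is red, and *Hspa2* (1.01), *Rbm46* (0.72) and *Lhx8* (0.56) are the high points of their lists.

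Markers of other cells were set beside these genes. Of 16 measured markers of primordial germ cells, 0 passed the adjusted p and 3 had an unadjusted p under 0.05 in limma, 18.8% beside 8.87% of all genes: *Kit* (0.31) was higher, and *Lin28a* (-0.66), also a gene of early neural progenitors, and *Sall4* (-0.60) were lower. *Pou5f1* (0.09), *Nanog* (0.11) and *Dppa3* (-0.12) had overlapping groups, and the median of the list per array, relative to the mean over all 6 arrays, ran from -0.07 to 0.01 in both groups. The median of 19 neuron markers ran from -0.45 to 0 in the controls and from -0.08 to 0.39 in *Ezh2* cko. That of 14 mesenchyme markers ran from -0.40 to 0.07 and from 0.03 to 0.20. Of the neuron markers 9 (47.4%) and of the mesenchyme markers 6 (42.9%) had an unadjusted p under 0.05 in limma. All of these were higher in *Ezh2* cko, beside 8.87% of all genes in either direction, and 0 passed the adjusted p. When the fit also held the average neuron marker level of each array, a choice made after seeing the data, the differences were 1.02 for *Tex15*, 1.15 for *Ddx43* and 0.69 for *Ooep*, and 0 of the 3 passed the adjusted p. In that fit 18 of all probe sets were called, against 85 without the term. The neuron marker level was itself mostly higher in *Ezh2* cko, and on 6 arrays the fit cannot tell it apart from the genotype. Nothing is therefore read from the lost calls. The parts of the neuron and mesenchyme markers were not tested. The tissue carried the midbrain genes *Otx2* (11.25 in controls and 11.34 in *Ezh2* cko), *En1* (8.15 and 8.52) and *En2* (12.34 and 12.51). Of the list of 10 midbrain genes that holds them, 0 passed the adjusted p and 5 had an unadjusted p under 0.05 in limma, 50% beside 8.87% of all genes. *Wnt1* (0.90), *Lmx1b* (0.58) and *En1* (0.37) were higher and *Tal2* (-0.88) and *Pax5* (-0.25) lower. *Wnt1* and *Tal2* met the threshold of the methods, beside 68 genes higher and 6 lower of all 18193.

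Of the 3 calls, that of *Ddx43* held when any single array was left out. Those of *Tex15* and *Ooep* were lost in 5 of 6 such fits, without each control replicate and without *Ezh2* cko replicates 1 and 3, at differences of 1.01 to 1.17 and 0.69 to 0.76. In the same fits the calls over all probe sets fell from 85 to between 21 and 39.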

How the data were processed

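Total RNA of 3 control and 3 *Ezh2* cko dorsal midbrains was measured on 1 array each. The deposited values are log2 signals that the authors made with RMA, 1 per probe set; the software version and probe definition are not given in the sources used here. Array quartiles were nearly equal (lower 4.25 to 4.33, medians 5.68 to 5.72, upper 8.12 to 8.22), and signals carry no depth, so the number of arrays limits the precision. After 64 control sets were left out of 45101, the other 45037 were fitted with limma 3.58.1 (R 4.3.3; lmFit, eBayes), with the group as the single term, and p-values were adjusted by Benjamini-Hochberg over all of them. The platform's annotation gives 1 symbol to 34945 sets, several to 932 and none to 9160; Entrez identifiers updated 34741 symbols. For lists and neighbours, a gene is represented by the set whose mean signal was highest.

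The 10 germline genes and all lists were chosen with earlier results of these data known. Text names every probe set of the 10 genes, up to 4 genes per list by size of difference, the 3 measured genes on each side of *Tex15* and *Ddx43*, the 3 most alike in each likeness measure, *Otx2*, *En1*, *En2* and *Ezh2*; *Khdc3*, *Mga*, the germ cell markers and the other midbrain genes were added after their values were seen. Promoter windows are RefSeq's (GRCm38.p6). The fit was tested on simulated data. Alternatives tried were array weights, a trended and robust prior, the unpaired test that the methods name, a filter under the 25th percentile, quantile, median and loess scaling, the replicate number as a block, an adjusted p under 0.1, any probe set of a gene, leaving out each array and, added after the data were seen, the neuron marker mean as a term.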

Additional observations from a re-analysis of the deposited data

How the results depend on the processing

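The signs of the differences of *Tex15*, *Ddx43* and *Ooep* were positive under all alternatives run, and *Tex15* and *Ddx43* met the threshold of the methods in each. The count of the 12 probe sets past the adjusted p, 3 as reported, was 1 to 3 when single arrays were left out (3 without *Ezh2* cko replicate 2), 0 with the unpaired test of the methods, which called 0 of all probe sets and gave 3 of the 12 an unadjusted p under 0.05, and 0 with the neuron marker mean as a term, which called 18 of all probe sets against 85. With the replicate number as a block it was 2, *Tex15* being lost (adjusted p 0.0805 in limma), and 59 of all probe sets were called. Same-numbered samples deviated with correlations of 0.07, -0.20 and 0.06, so the numbers were not taken to pair them, and 1 of 3 controls correlated best with its own number. The other germline genes past the adjusted p, 0 as reported, were 1 with a trended and robust prior (*Hspa2*, adjusted p 0.046 in limma) and 2 at an adjusted p under 0.1 (*Hspa2* and *Lhx8*), and 0 when any single array was left out. That prior called 111 of all probe sets and the looser cutoff 166, against 85 as reported. The repressors stayed at 0 under all alternatives run, the unpaired test being void here. The causes of these changes were not tested, except that leaving out an array leaves fewer samples. The filter on dim probe sets removes the 9 probe sets without a call, so it gives no value for them. It acts on the mean over all 6 arrays, and *Ddx43* passes it only through its *Ezh2* cko arrays. Its result under that filter therefore carries no weight. Signal near the background limits what can be seen of *Ddx4*, *Dazl*, *Mael*, *Sycp1*, *Sycp3*, *Stk31* and *Tdrd1*. The controls of *Ddx43* were as dim, so its fold is also measured from a level near the background.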
